A study of Mus musculus with 4 samples.

Results

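Broad Eya1 intervals are stretches of 2000 bp or more over which peaks of Eya1 occupancy ran together in the developing mouse kidney. They were chosen by width alone. The 2 deposited Eya1 peak lists were merged, peaks that touched or overlapped were joined, and 363 of the 5482 merged intervals on the nuclear chromosomes reached the width. These intervals were 6.62% of all merged intervals and held 17.6% of their bases. Widths ran from 2000 to 5380 bp with a median of 2362 bp, and 225 of the 363 were under 2500 bp.

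Chromatin came from E13.5 kidneys of Eya1HA-FLAG knockin mice, in which HA and FLAG tags are fused to the Eya1 protein expressed from its own locus, on a mixed C57BL/6J and 129/Sv background. Each assay pooled 80 kidneys. The series comprised 4 samples, which were 2 Eya1 chromatin immunoprecipitation (ChIP-seq) replicates pulled down with anti-FLAG beads, 1 genomic input and 1 IgG control. No untagged kidney was analysed here. Whole kidneys mix nephron progenitors, stroma and ureteric bud, so the lists do not tell in which cells a site was occupied. Replicate 2 listed 4164 nuclear peaks, of which 11.5% lay in broad intervals. Neither list carries a score, a read count or a p-value, so the depth behind a peak is unknown. Neither control has a list that was analysed here, so the Eya1 values have no background beside them.

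Eya1 is a transcriptional coactivator and protein phosphatase that has no DNA-binding domain of its own. It is brought to chromatin by partners such as homeodomain proteins of the sine oculis family, and it is required for the nephron progenitors from which the filtering units of the kidney arise. Most mammalian promoters of housekeeping and developmental genes lie in CpG islands, stretches rich in C, G and the dinucleotide CpG, and genes for developmental regulators often have the longest islands. A wide ChIP peak at such a promoter can reflect occupancy along the island or several neighbouring sites that were not resolved, and the width of a listed peak does not distinguish them.

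Width came almost wholly from replicate 1. A single replicate 1 peak of 2000 bp or more made up 362 of the 363 intervals. The exception, at Atn1, which encodes a transcriptional corepressor, joined 2 replicate 1 peaks over 2312 bp. No nuclear replicate 2 peak was that wide, and the 479 replicate 2 peaks inside the broad intervals had a median width of 229 bp (range 117 to 1414 bp). Apart from Atn1, which reached the width only once a replicate 2 peak was joined to it, the replicate 2 peaks thus give a second set of positions within intervals that they did not select.

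Sequences of replicate 2 peaks, or of the central 300 bases of longer ones, are shown for 5 of these intervals because they span the range from CpG-dense to CpG-poor members. None overlaps an annotated exon. All are read from the GRCm38 (mm10) plus strand, 5′ to 3′, and capitals mark each CpG. The stretch in Midn is at chr10:80150602-80150799, that in Ptch1 at chr13:63563337-63563560, that in Ubtf at chr11:102318198-102318497, that in Spaca6 at chr17:17827896-17828195 and that near Kdm6b at chr11:69415804-69416013.
Midn: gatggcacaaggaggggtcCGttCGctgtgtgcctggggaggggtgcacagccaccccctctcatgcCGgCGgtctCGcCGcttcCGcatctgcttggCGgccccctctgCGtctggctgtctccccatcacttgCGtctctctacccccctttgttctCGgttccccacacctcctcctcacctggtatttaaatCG
Ptch1: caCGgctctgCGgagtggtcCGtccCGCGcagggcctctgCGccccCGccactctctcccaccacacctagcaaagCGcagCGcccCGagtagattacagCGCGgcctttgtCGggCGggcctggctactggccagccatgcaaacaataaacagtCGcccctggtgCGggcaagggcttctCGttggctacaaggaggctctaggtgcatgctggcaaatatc
Ubtf: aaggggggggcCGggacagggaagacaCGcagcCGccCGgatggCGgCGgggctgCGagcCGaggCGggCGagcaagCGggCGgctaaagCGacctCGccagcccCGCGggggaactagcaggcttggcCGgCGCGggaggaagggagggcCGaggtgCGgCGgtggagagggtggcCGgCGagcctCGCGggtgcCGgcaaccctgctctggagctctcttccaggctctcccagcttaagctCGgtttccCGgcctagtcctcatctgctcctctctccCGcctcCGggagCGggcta
Spaca6: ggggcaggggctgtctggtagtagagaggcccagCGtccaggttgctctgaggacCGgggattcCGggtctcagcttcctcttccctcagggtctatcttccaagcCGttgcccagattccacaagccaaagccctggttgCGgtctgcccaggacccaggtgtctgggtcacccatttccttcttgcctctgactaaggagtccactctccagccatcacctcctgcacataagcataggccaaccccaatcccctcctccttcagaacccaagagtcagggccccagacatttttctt
near Kdm6b: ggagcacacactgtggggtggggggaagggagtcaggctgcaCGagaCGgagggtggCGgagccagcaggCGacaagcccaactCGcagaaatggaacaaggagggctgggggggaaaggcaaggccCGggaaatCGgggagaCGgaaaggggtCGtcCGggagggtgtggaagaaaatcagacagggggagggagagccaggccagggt
The Ubtf stretch held 32 CpGs at 73.0% GC, and the Spaca6 stretch of the same length held 5 at 58.3% GC. The Midn, Ptch1 and Kdm6b stretches held 12, 17 and 10 CpGs.

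Replicate 2 peaks were found in 274 of the 363 broad intervals (75.5%, 95% CI 70.7 to 79.8%), beside 66.3% of all merged intervals, a share that includes intervals made of replicate 2 peaks alone. Of the broad intervals, 89 held none, 135 held 1, 94 held 2, 31 held 3, 7 held 4 and 7 held 5. The mean was 1.32 replicate 2 peaks per broad interval (95% CI 1.20 to 1.44), compared with 0.72 per interval under 2 kb. In bases the order was the opposite, with 0.522 replicate 2 peaks per kb in broad intervals and 0.855 in the others. The others include intervals made of replicate 2 peaks alone, which hold such a peak by construction, whereas every broad interval holds a replicate 1 peak. The 2 rates are thus not like for like, and rates by replicate 1 width alone follow below. In 272 broad intervals all replicate 2 peaks lay wholly inside the single replicate 1 peak. Intervals on counts and shares here cover counting error over intervals, and intervals of 1 peak list are not biological replicates.

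To ask whether wide replicate 1 peaks were the ones that replicate 2 located, replicate 1 peaks were grouped by their own width. A replicate 2 peak was present in 44.4% of the 1539 peaks of 500 to 999 bp (95% CI 41.9 to 46.9%), in 60.7% of the 1438 peaks of 1000 to 1499 bp (95% CI 58.1 to 63.2%) and in 68.9% of the 595 peaks of 1500 to 1999 bp (95% CI 65.0 to 72.6%). It was present in 75.4% of the 362 peaks of 2000 bp or more (95% CI 70.6 to 79.8%). The share thus rose with width from 500 bp upwards, although the intervals of the 2 widest classes overlapped, while the 343 narrowest peaks, under 500 bp, were at 55.7%. Wider peaks give more room for a second peak. The number of replicate 2 peaks per kb was 0.603, 0.582, 0.535 and 0.521 in those 4 classes, and its intervals overlapped between neighbouring classes. Peaks of 2000 bp or more held 2 or more replicate 2 peaks in 38.1% of cases, against 20.3% in the class below.

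**Figure D1:**
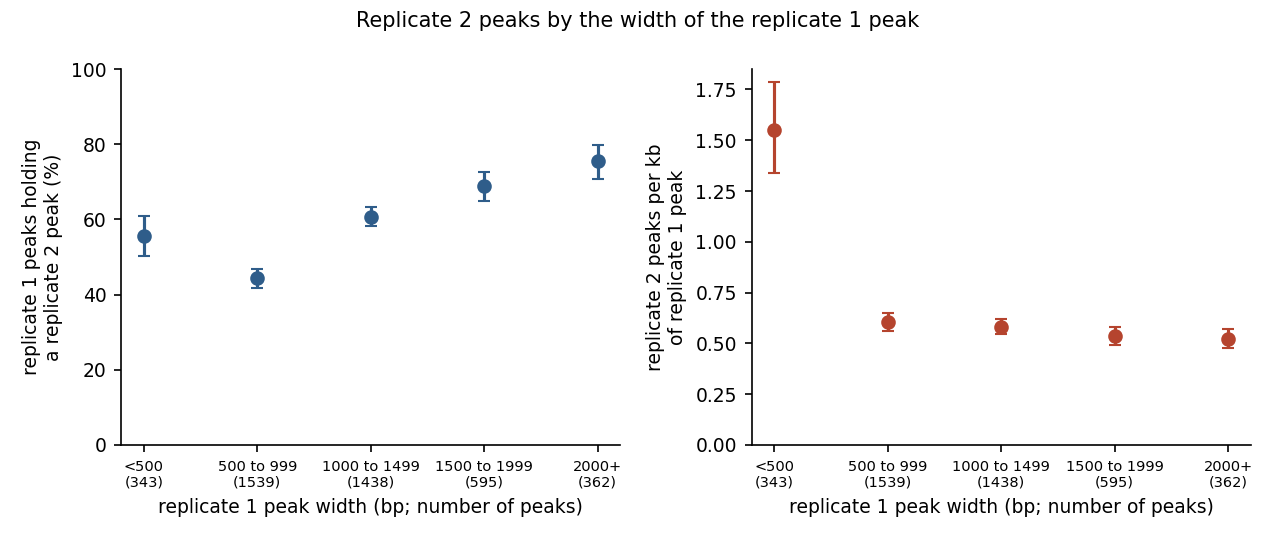
Left, share of replicate 1 peaks that hold a replicate 2 peak (%), and right, replicate 2 peaks per kb, by replicate 1 peak width (bp, number of peaks in brackets). Points are values with 95% confidence intervals (exact binomial, exact Poisson); the share is highest, at 75.4%, in the widest class, where the rate per kb is 0.521.

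The positions of the broad intervals were then compared with GENCODE M21 gene models. A protein-coding transcription start site (TSS) lay inside 351 of the 363 (96.7%, 95% CI 94.3 to 98.3%), beside 69.9% of all merged intervals. Wider stretches are more likely to hold a TSS, and among replicate 1 peaks of 1500 to 1999 bp the share was already 95.3%, and of 1000 to 1499 bp 93.0%. A single gene started in 297 of them and 2 genes in 54. In total 404 protein-coding genes had a TSS in a broad interval, which is 1.84% of the 21911 protein-coding genes, and 310 of the 404 were in an interval with a replicate 2 peak. Across all merged intervals 4210 genes had a TSS inside. Genes in broad intervals had a median span of 26.7 kb, compared with 29.2 kb for occupied genes in narrower intervals and 17.4 kb for all protein-coding genes.

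Broad intervals reached far into the gene. Distances were taken from the most 5′ protein-coding TSS inside the interval, which is not always the first TSS of the gene. Sequence counted as upstream can therefore lie within the gene. In the 297 with TSS of a single gene, the median extent was 622 bp upstream and 1826 bp downstream of that TSS. The extent downstream was the greater in 266 of the 297 (89.6%, 95% CI 85.5 to 92.8%), beside 91.9% of narrower intervals. The TSS lay at a median of 25.7% of the width from the upstream edge, and at 17.9% in narrower intervals. The widest, over Midn (chr10:80147852-80153231), began 420 bp before the TSS and ran 4960 bp past it. Igf2, which encodes a fetal growth factor, was the reverse, with 1908 bp upstream and 769 bp downstream, and held no replicate 2 peak. Whole genes fitted inside broad intervals at Foxc2, Hoxd9, Eva1b and Gm19426.

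Replicate 2 midpoints lay downstream of the TSS as well. Among 375 replicate 2 peaks in 215 single-gene broad intervals, 326 were downstream (86.9%, 95% CI 83.1 to 90.2%) and 48 were upstream. In narrower intervals 91.1% were downstream. The intervals themselves extend mostly downstream, so these shares are not independent of where the intervals lie. The median was 563.5 bp downstream (quartiles 299.2 and 1007.2 bp), compared with 250.8 bp in narrower intervals. Only 54 of the 375 (14.4%) were within 250 bp of the TSS, against 47.1% in narrower intervals, and 95 (25.3%) were over 1000 bp downstream, against 1.57%. Narrow intervals leave little room for such distances. In broad intervals with a single replicate 2 peak the median was 491 bp downstream. Of the 110 single-gene intervals with 2 or more, 81 had every midpoint downstream and 24 had midpoints on both sides of the TSS. Neighbouring replicate 2 peaks were separated by a median gap of 159 bp (205 gaps, range 51 to 1152 bp).

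**Figure D2:**
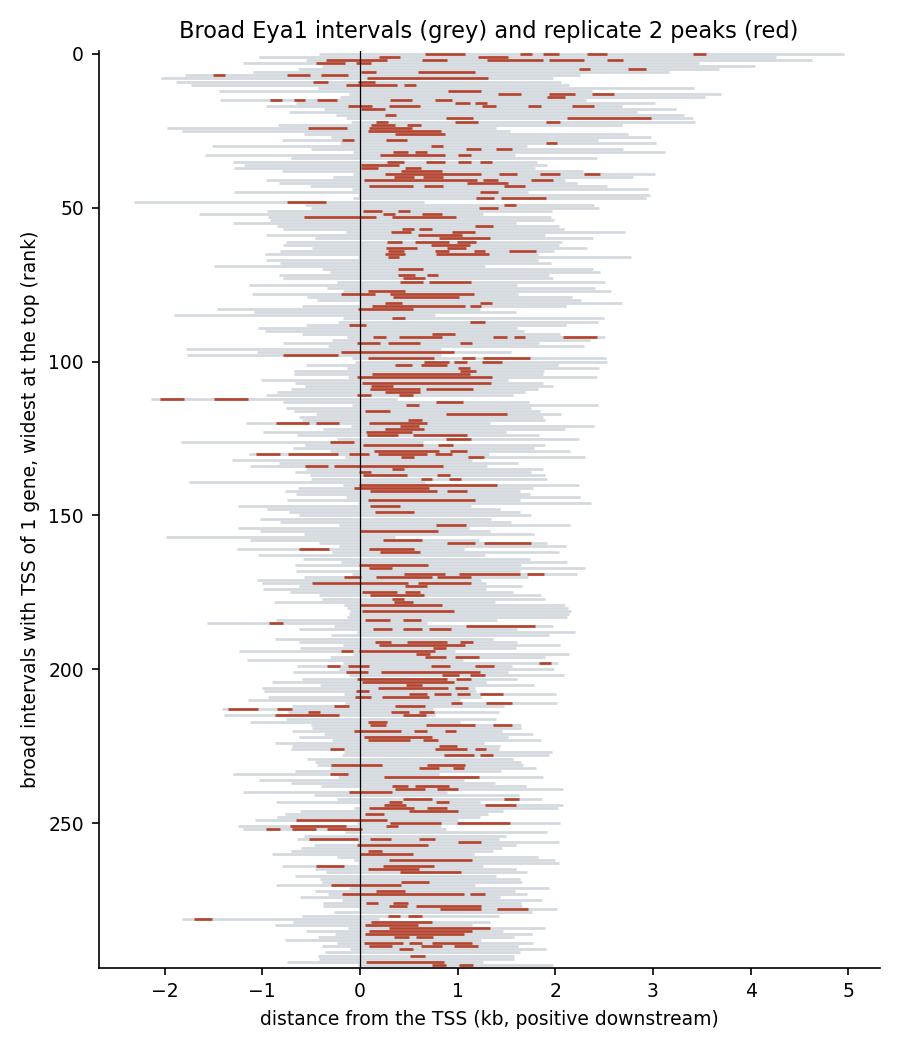
Each grey line is a broad interval with TSS of a single gene (297, widest at the top), drawn by distance from the most 5′ TSS inside it (kb, positive downstream). Red segments are replicate 2 peaks. Grey extends further to the right of 0 in 266 of the 297, and 326 of the 375 replicate 2 midpoints lie to the right of 0.

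**Figure D3:**
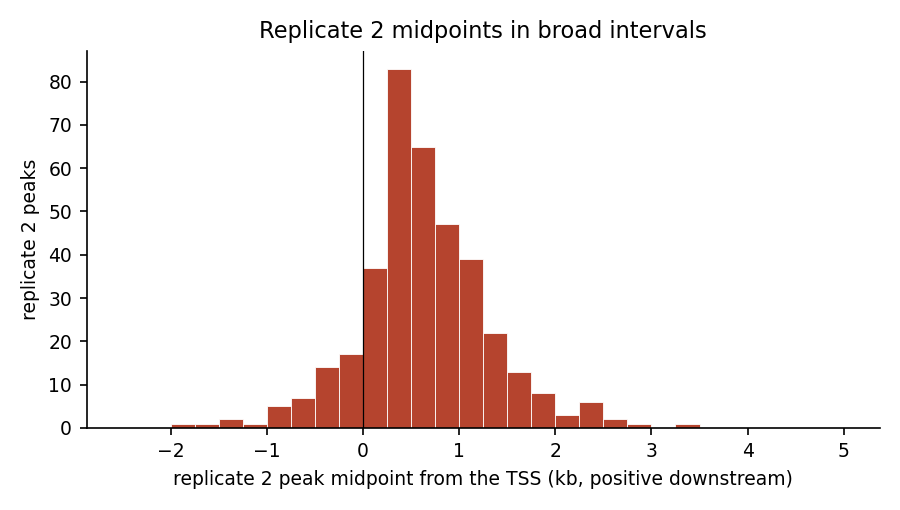
Histogram of the 375 replicate 2 peak midpoints in single-gene broad intervals by distance from the TSS (kb, positive downstream). The bulk is downstream, with a median of 563.5 bp.

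CpG content was that of island promoters. CpG observed over expected, the number of CpGs divided by the number that the C and G content would give in random order, had a median of 0.738 (quartiles 0.643 and 0.826), and median GC was 62.5%. Narrower intervals had medians of 0.767 and 62.9%. In the central 1 kb, broad intervals had a median of 9.3 CpGs per 100 bp and GC of 66.9%. Narrower intervals with a protein-coding TSS had 7.9 and 63.6%, and all narrower intervals 7.4 and 62.3%. The window lies wholly inside a broad interval but takes in flanking sequence of intervals under 1 kb, so these values are not matched for position. Predicted CpG islands covered a median of 80.2% of the width of broad intervals and 82.3% of that of narrower ones, or 80.4% and 88.3% where both hold a protein-coding TSS. Islands covered more than 50% of the width in 333 of the 363. Among broad intervals, width and CpG observed over expected were nearly unrelated (Spearman's rho -0.15 over 363 intervals, which share 1 peak caller and, for neighbours, base composition).

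Within broad intervals, replicate 2 peaks were mostly denser in CpG than the remainder. In 234 of 274 intervals (85.4%) the replicate 2 peaks held more CpGs per 100 bp than the rest of the same interval, with medians of 9.76 and 6.58, and in 207 (75.5%) they had the higher CpG observed over expected. Marcks was among the exceptions, at 5.74 CpGs per 100 bp inside its replicate 2 peaks and 10.4 outside. GC was higher inside the replicate 2 peaks in 241 of the 274, with medians of 69.9% and 60.6% and a median difference of 8.63 percentage points (95% CI 7.68 to 10.1). The rest takes in the outer parts of each interval, so these comparisons are not matched for position. The central 1 kb of all 363 broad intervals had medians of 9.3 CpGs per 100 bp and 66.9% GC. Intervals with no replicate 2 peak had a median CpG observed over expected of 0.672 (n = 89), those with 1 had 0.737 (n = 135) and those with 2 or more had 0.771 (n = 139). Fragments rich in GC can be over- or under-sampled in sequencing libraries, and the part this played was not tested.

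**Figure D4:**
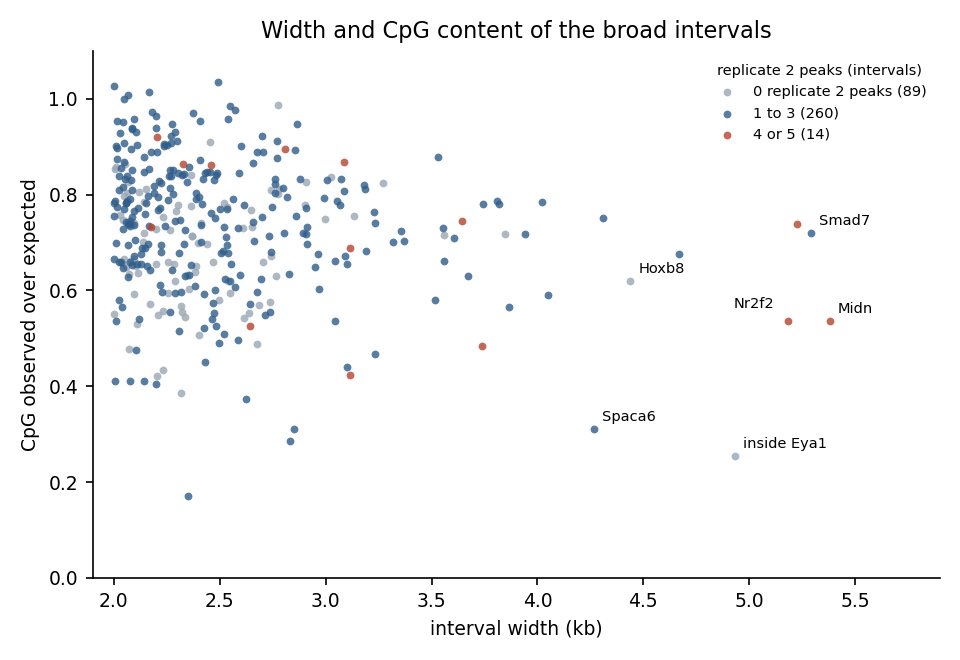
CpG observed over expected against width (kb) for the 363 broad intervals, coloured by the number of replicate 2 peaks inside (0, 1 to 3, 4 or 5). The interval inside Eya1 and that at Spaca6 stand at 0.254 and 0.31, below the median of 0.738.

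The widest intervals lay at genes of varied function. Midn encodes midnolin, which delivers short-lived nuclear proteins to the proteasome, and its interval held 5 replicate 2 peaks over 19.1% of its 5380 bp. Smad7, the feedback inhibitor of TGF-beta signalling, had an interval of 5290 bp with 2 replicate 2 peaks. The interval at Brd2 and H2-DMa (chr17:34117771-34122997, 5227 bp) held 5 replicate 2 peaks, and Brd2 is a BET bromodomain reader of acetylated histones. Nr2f2, an orphan nuclear receptor of the kidney stroma (also called COUP-TFII), had an interval of 5184 bp (chr7:70355967-70361150) with 5 replicate 2 peaks over 37.8% of it. Exons covered 85.1% of the Nr2f2 interval but 25.4% of that at Midn.

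The others of the 10 widest varied in replicate 2 peaks, and across the 363 intervals width and the number of replicate 2 peaks were only weakly related (Spearman's rho 0.12, a description over intervals of the same 2 lists). Hic1, a transcriptional repressor, had 4669 bp and 2 replicate 2 peaks. Anp32a, which encodes an acidic nuclear phosphoprotein, had 4311 bp, an island over 100% of the width and 2 replicate 2 peaks. Meis2, a TALE homeodomain factor, had 4051 bp and 3. Hoxb8, which specifies position along the body axis, had 4438 bp and 0. Of the 10 widest intervals, 8 held a replicate 2 peak.

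Intervals with 4 or 5 replicate 2 peaks numbered 14 of 363. Beside Midn, Brd2 and Nr2f2, 5 peaks were found at Mex3a (3740 bp), an RNA-binding ubiquitin ligase, at Ptch1 (3645 bp), the hedgehog receptor and itself a hedgehog target, at Zfp36l1 (2642 bp), which destabilises mRNAs with AU-rich elements, and at Ubtf (2457 bp), the activator of ribosomal RNA transcription. At Ubtf the replicate 2 peaks covered 67.5% of the interval, and CpG islands covered 99.2%. At Zfp36l1 the island share was 59.2% and GC was 52.6%. Ptbp1, a repressor of neuronal exons, and Marcks, an actin-crosslinking membrane protein, followed with 4 replicate 2 peaks each over 3115 and 3085 bp. High numbers of replicate 2 peaks were found at promoters of both high and lower CpG density.

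The gene that encodes the tagged protein had the fifth widest interval. It spanned chr1:14298006-14302936 (4931 bp) within Eya1, held no replicate 2 peak and no protein-coding TSS, and was 1634 bp from the nearest one. It overlapped 2 exon records and included 1 annotated start codon. Its GC was 37.9%, its CpG observed over expected was 0.254, and no base fell in a predicted CpG island, which was true of no other broad interval. This locus carries the inserted tags in these mice.

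Eya1 was 1 of 12 intervals with no protein-coding TSS. At Malat1, an abundant nuclear long noncoding RNA, an interval of 3115 bp held 4 replicate 2 peaks and had a GC of 44.1%. An interval of 2327 bp with 4 replicate 2 peaks stood 80 bp from the nearest TSS of Ptma, which encodes the chromatin protein prothymosin alpha. Others stood 79 bp from a TSS of Bicral, 163 bp from Prrc2b, 192 bp from Pkdcc, 198 bp from Ctdsp2, 392 bp from Anp32b, 436 bp from Kdm6b and 659 bp from Zfp36l2. The remaining 2 lay at 1810026B05Rik and Tmem250-ps, both noncoding. Distal sites were thus rare among broad intervals, and 9 of the 12 were less than 2 kb from a protein-coding TSS.

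The interval near Kdm6b, an H3K27 demethylase, had the lowest CpG observed over expected of all, 0.171 over 2351 bp, and its single replicate 2 peak lay in the CpG-richer stretch printed above. At Spaca6, which encodes a sperm membrane protein, the value was 0.31 over 4268 bp, and among the 10 widest only the Eya1 interval was lower. That interval also contains the hairpin gene Mir99b, whose mature miR-99b-5p lies at chr17:17830194-17830215 (plus strand) and has, in the RefSeq GRCm38 table, the sequence below with its seed in capitals.
miR-99b-5p: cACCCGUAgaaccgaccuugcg
GENCODE places the start of 11 miRNA genes inside broad intervals, and 8 miRNA genes with a mature sequence in the RefSeq table lay there, among them Mir196b beside Hoxa9.

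Gene lists were then laid over the 404 genes. Since a list may be large or small in Eya1 peaks of any width, each is given as the share of its occupied members, those with a TSS in any merged interval, whose interval was broad. The share for all protein-coding genes was 9.60% (404 of 4210). Of these 404 genes, 310 were in an interval with a replicate 2 peak, the value to set beside such counts in each list. The lists overlap, no test was run on them, and intervals on shares cover counting error over genes. They were chosen with earlier results of these data known, so a high share describes the list and is not independent support.

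Kidney stroma genes had 9 of 13 occupied members in broad intervals (69.2%, 95% CI 38.6 to 90.9%). They were Nr2f2, Hic1, Meis2, Fat4 (3942 bp), an atypical cadherin, Foxc2 (3529 bp) and Foxc1 (2700 bp), forkhead factors of mesenchyme, Pdgfra (2256 bp), a growth factor receptor, and Nr2f1 (2022 bp) and Tcf21 (2012 bp). All but Pdgfra held a replicate 2 peak, beside 310 of all 404 genes. Tcf21, a helix-loop-helix factor of stroma and podocytes, was among the narrowest members of the whole set and held 2.

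Nephron progenitor and metanephric mesenchyme genes had 6 of 8 (75.0%, 95% CI 34.9 to 96.8%). Hmga2 (3817 bp), an architectural chromatin protein, Sall1 (3742 bp), a zinc-finger factor that maintains progenitors, and Hoxc10 (2040 bp) held 1 replicate 2 peak each. Myc (2997 bp), Gdnf (2441 bp), the ligand that draws out the ureteric bud, and Cited2 (2144 bp), a coactivator that binds Ep300, held none. The list had 36 members measured, of which 28 had no TSS inside a merged interval. This does not mean that Eya1 was absent from their promoters. The paper counts Six2, Pax2, Lin28b, Hoxa11 and Hoxd11, all on this list, among Eya1 targets. It describes Eya1 at the promoters of Pax2 and Lin28b. Only 2 list members were occupied in intervals under 2 kb alone, so most of those genes count as unoccupied here. Over all 21911 protein-coding genes, 4210 had an occupied TSS. Ureteric bud genes had 1 of 4, Spry2 (2215 bp, 2 replicate 2 peaks), an inhibitor of receptor tyrosine kinase signalling. Of 28 podocyte and nephron differentiation genes, 0 had an occupied TSS. Only intervals over a TSS count here, and the paper reports Eya1 in an intron of Nphs1 and far upstream of Podxl.

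The signalling lists had shares whose intervals overlapped. FGF, receptor tyrosine kinase (RTK) and MAPK feedback genes had 10 of 21 (47.6%, 95% CI 25.7 to 70.2%). Only 5 of the 10 were in an interval with a replicate 2 peak, beside 310 of all 404. Among the 10 were Fgfr1 (2663 bp, 1 replicate 2 peak), Fgfr2 (2676 bp, 3, shared with Ctbp2), Irs2 (0) and Map2k2 (2). Wnt pathway genes had 7 of 22 (31.8%, 95% CI 13.9 to 54.9%), and all 7 held a replicate 2 peak, beside 310 of all 404. They included the receptors Fzd7 (3607 bp) and Fzd2 (2210 bp), Axin2 (2798 bp), a feedback inhibitor, and the corepressors Tle1 and Tle3. TGF-beta and BMP genes had 2 of 16, Smad7 and Id3, and hedgehog genes 1 of 6, Ptch1. Notch pathway genes had 0 of 10, which allows a share of up to 30.8%.

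Immediate early and stress response genes had 15 of 31 (48.4%, 95% CI 30.2 to 66.9%). They included Midn, Klf13, Klf10 and Klf16, Jun, Jund, Atf4, Ddit4, Mcl1 and Id3. Only 7 of the 15 were in an interval with a replicate 2 peak, beside 310 of all 404. All 4 Klf genes in broad intervals, which encode zinc-finger factors, were without one.

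Chromatin and RNA processing genes were well represented. Chromatin regulators had 29 of 119 (24.4%, 95% CI 17.0 to 33.1%), and 26 of the 29 held a replicate 2 peak. They ran from Brd2, Pcgf2 (3671 bp), a Polycomb subunit, and Nsd1 (3553 bp), an H3K36 methyltransferase, to Ep300 (2414 bp), an acetyltransferase. Relatives recurred, with Arid1a and Arid1b, Setd1a and Setd1b, Nsd1 and Nsd3, and Ing1 and Ing2 all present, pairs that were picked out after the list was seen. RNA processing genes had 27 of 102 (26.5%, 95% CI 18.2 to 36.1%), and 25 of the 27 held a replicate 2 peak. The median width at these genes was 2268 bp, compared with 2355.5 bp at all 404. Genes named Hnrnp, which encode abundant RNA-binding proteins of the nucleus, had 10 of 18 occupied members in broad intervals, and all 10 held a replicate 2 peak. Hnrnpa0 had the highest CpG observed over expected of any broad interval, 1.03.

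Ribosomal protein and translation genes were nearly absent from broad intervals. Of 82 occupied members, 1 was in a broad interval (1.22%, 95% CI 0.0309 to 6.61%), Eif4g2 (2700 bp), a translation initiation factor of the eIF4G family. Of 45 occupied Rpl and Rps genes, which encode ribosomal proteins, 0 were in a broad interval. Ubiquitin genes had 9 of 120 (7.5%) and cell cycle genes 3 of 28, Myc, Wee1, an inhibitory kinase of mitotic entry, and Ccnd2. Cytoskeleton and adhesion genes had 6 of 21 (28.6%), among them Marcks, Zyx and Vim.

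**Figure D5:**
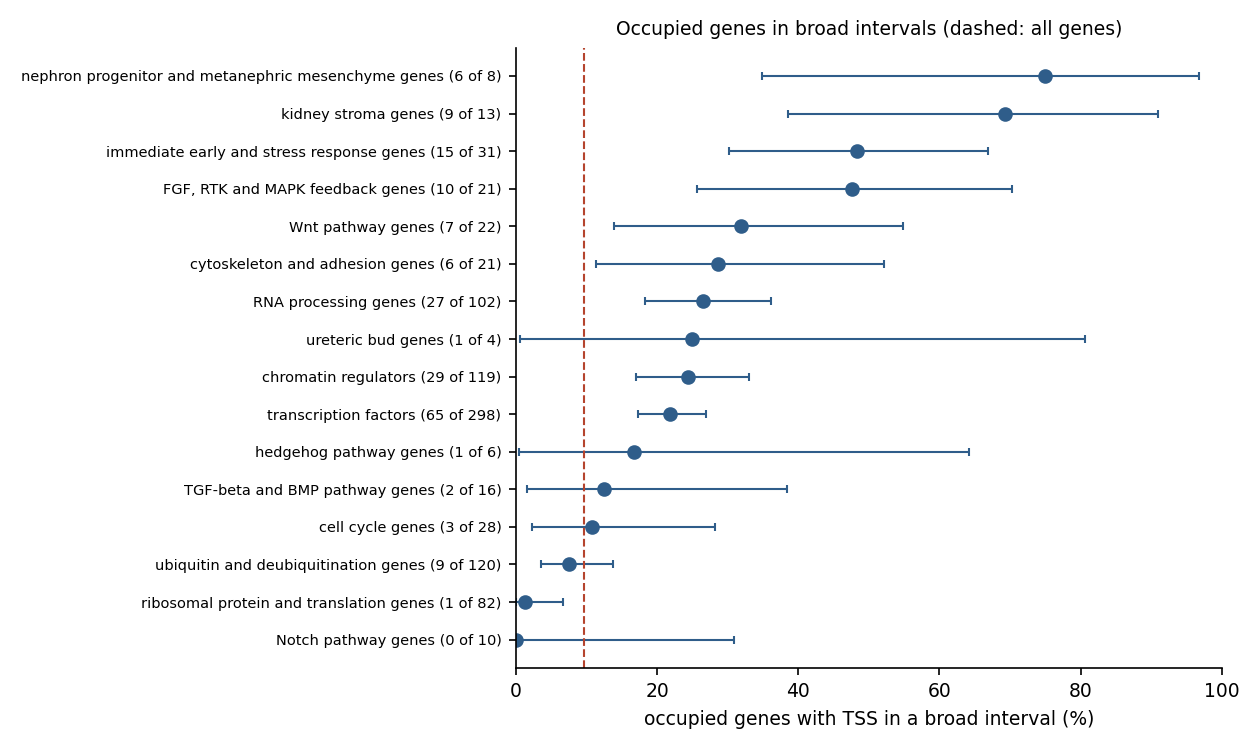
Share (%) of occupied genes of each list whose TSS is in a broad interval, with exact binomial 95% confidence intervals and the numbers in brackets; the dashed line is all protein-coding genes (9.60%). Progenitor and stroma genes are at 75.0% and 69.2%, and ribosomal protein and translation genes at 1.22%. The lists were chosen with earlier results of these data known.

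Transcription factors were 65 of the 404 genes in broad intervals (16.1%, 95% CI 12.6 to 20.0%), compared with 6.12% of occupied genes in narrower intervals. Of the 65, 47 were in an interval with a replicate 2 peak, beside 310 of all 404. The share did not rise steadily with replicate 2 peaks. It was 19.1% of genes in broad intervals with 0, 11.8% with 1 and 18.4% with 2 or more. The transcription factor share of genes was higher in wider intervals, at 38.0% (19 of 50) for widths of 3000 bp or more. Of the 298 occupied transcription factors 21.8% were in broad intervals. The zinc-finger symbols beginning Zfp, Zbtb or Zscan accounted for 15 of the 65, among them Zfp36l1, an RNA-binding protein whose symbol alone matched. Without the Zfp36 family the share of genes in broad intervals was 15.8%. Without any of the Zfp, Zbtb and Zscan symbols, 50 of 157 occupied factors were in broad intervals (31.8%), against 10.6% of those zinc-finger symbols. Hox genes had 7 of 11 occupied members in broad intervals (Hoxb8, Hoxd9, Hoxa3, Hoxb6, Hoxa9, Hoxc5 and Hoxc10, the last 2 in a shared interval) and Fox genes 6 of 9. Gata6 (3847 bp), Zfp703 (3561 bp) and Kctd15 (3273 bp), of which the first 2 are transcriptional regulators, were the next widest with no replicate 2 peak.

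RE1, the element that the repressor REST recognises, was searched on both strands with at most 2 mismatches. It was present in 86 of 363 broad intervals (23.7%, 95% CI 19.4 to 28.4%), beside 20.9% of all merged intervals. A wider stretch gives more positions for a match. Where a protein-coding TSS was present the share was 24.2% of broad and 12.8% of narrower intervals, and in stretches of equal width directly flanking them it was 19.7% and 8.92%. An element with no mismatch was found in 1 of 363 broad intervals (0.275%) and in 213 of 5119 narrower intervals (4.16%). Among intervals with a protein-coding TSS the numbers were 1 of 351 (0.285%, 95% CI 0.00721 to 1.58%) and 22 of 3481 (0.632%, 95% CI 0.396 to 0.955%), whose intervals overlapped. That interval was at Scrt1 (2693 bp), which encodes a neural zinc-finger repressor, and its single replicate 2 peak covered the element at chr15:76522257-76522273 (plus strand, exonic). A replicate 2 peak also covered an element with 1 mismatch between Asphd1 and Sez6l2, at chr7:126950004-126950020 (minus strand, outside exons). At Meis2, Arhgap35 and Atf4 an element with 1 mismatch was not covered by any replicate 2 peak. Both covered elements are shown as the strand that carries the element, with capitals for bases that match the consensus.
Scrt1: TTCAGCACCGCGGCCAG
Sez6l2: TTCAGCACCTGGGCGcG
A match is a property of the sequence and not a measurement of REST binding.

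Broad intervals were found on all autosomes and on chromosome X. Their share of merged intervals ran from 4.22% on chromosome 16 to 12.9% on chromosome 17 (31 of 240). Chromosome X had 3 of 25, at Efnb1 (2738 bp), an ephrin ligand, Stag2 (2397 bp), a cohesin subunit, and Ddx3x (2230 bp), an RNA helicase, and none of the 3 held a replicate 2 peak. Intervals on either side of the threshold were close in width but varied in replicate 2 peaks. Just inside stood Yy1 (2000 bp, 2 replicate 2 peaks), Top2b (2001 bp, 1) and the interval at Tmem250-ps (2001 bp, 1). Just outside stood Tab2 and Sart1 (both 1997 bp, with 3 and 0 replicate 2 peaks) and Lamc1 (1992 bp, 0).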

How the data were processed

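Eya1 ChIP-seq was performed on E13.5 kidneys. The authors aligned reads to mm10 with Bowtie and called peaks with MACS against input and against IgG at several cutoffs. They then used the peaks common to both calls, so the peak set of the paper is not the set of merged intervals used here. The submitters' processing notes name HISAT2 and mm10, so the aligner of the deposited lists is uncertain, as are the cutoff and control behind each. The deposited files give only the chromosome, start and end of each peak, with no score. Replicates were not pooled, and 11 mitochondrial replicate 2 peaks were left out. No nuclear peak passed a GRCm38 chromosome end (0 peaks).

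Peaks were merged with numpy 2.4.6 and pandas 2.3.3 in Python 3.11.15. TSSs were 5′ ends of GENCODE M21 transcripts of protein-coding genes. Sequence was read with pysam 0.24.0. CpG islands were windows of 200 bp with GC of at least 50% and CpG observed over expected of at least 0.6. RE1 is 17 bp long. Confidence intervals (95%) are exact binomial for shares, order-statistic for medians and exact Poisson for rates (scipy 1.17.1), and cover counting error only. No hypothesis test was run. Functions were checked on made data with known answers.

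Members and the 17 gene lists were chosen with earlier results of these data known, and look-alike symbols that were noticed were then dropped from the lists. Genes named are those of the 10 widest intervals, of the 10 with most replicate 2 peaks, list members, intervals beside the threshold, the widest without replicate 2 peaks or coding TSS, chromosome X and Eya1. Igf2, Atn1, Scrt1, Sez6l2, Arhgap35, the whole genes, gene pairs and families were added after their values were seen.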

Additional observations from a re-analysis of the deposited data

How the results depend on the processing

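Of 100 alternative values for 13 results, 70 stayed within the counting interval of the reported value, or within 1.5 times for a count, and 30 did not. At 1500 bp or more there were 961 intervals and 1087 genes, with 1.07 replicate 2 peaks per interval, CpG observed over expected of 0.761, islands over 82.3% of the width, 11.2% transcription factors and replicate 2 midpoints 455.5 bp past the TSS. At 3000 bp or more there were 51 intervals and 50 genes, with 86.3% covered by both replicates, 1.96 replicate 2 peaks per interval, a TSS in 94.1%, CpG observed over expected of 0.718, GC of 61.5%, islands over 82.6%, the TSS at 21.5% of the width, RE1 in 43.1%, 38.0% transcription factors and midpoints at 759.5 bp.

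Counting only TSSs of gene records put one in 79.9% of broad intervals, and only GENCODE basic transcripts in 93.9%. The central 1 kb gave CpG observed over expected of 0.816 and GC of 66.9%, and the replicate 2 peaks alone gave 0.828 and 69.9%. RE1 was in 0.275% with no mismatch and 1.38% with at most 1. Transcription factors without the zinc-finger symbols were 12.4% of genes.

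Leaving out a replicate gave 0 to 362 intervals and 0 to 402 genes. The 0 is without replicate 1, where no interval was left to measure, so the set rests on replicate 1. Without replicate 2 the other values stayed within their intervals. Joining rules, the stricter island rule and, added after the data were seen, leaving out the Eya1 interval, the intervals of a single replicate or the Zfp36 family from the transcription factors moved no value beyond its limit. No paired analysis was possible because the result comes from no test. The depth behind the lists is unknown, and with it the precision of peak edges.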
